A study of Mus musculus with 33 samples.

Results

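Granulocyte–monocyte progenitors (GMPs) sorted from the bone marrow of old mice were compared between mice that drank nicotinamide riboside (NR) and mice that did not. The comparison rests on 8 of the 33 libraries in the series, namely every GMP library, and the libraries were chosen by their labels alone. The comparison itself was chosen with earlier results of these data known. There were 4 libraries from untreated old mice (O-WT) and 4 from NR-treated old mice (O-NR), all of the cohort that the labels number 2. The study used C57BL/6 males for its aging work, aged 24 to 29 months, and gave NR at 12 mM in the drinking water for 4 to 6 weeks. The labels name no engineered allele, transgene or further agent for either group, and the O-WT labels read Control. The study's marker panel for GMPs is lineage-negative, Sca1-, cKit+, CD34+ and Fcgr+, while 1 label field calls the same cells common myeloid progenitors, which in that panel are Fcgr-. Neither the labels nor the methods say that each library is a separate mouse, so the p-values measure only the spread between these libraries, which may in part be technical.

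GMPs are committed progenitors that give rise to neutrophils, monocytes and, in marrow fractions defined by these surface markers, also to precursors of eosinophils, basophils and mast cells. They are known for high transcription of the enzymes stored in primary granules, such as myeloperoxidase and neutrophil elastase. NR is a vitamin B3 form that cells convert to nicotinamide mononucleotide and then to NAD+, the electron carrier of glycolysis and respiration and the substrate of sirtuins and poly-ADP-ribose polymerases. Cells that fold many secreted or granule proteins rely on chaperones of the cytosol, induced by heat shock factors, and on chaperones and degradation factors of the endoplasmic reticulum (ER), induced by the unfolded protein response.

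The sorted cells carried the transcripts that the name GMP implies. Levels are given as CPM, counts per 1000000 counted reads after TMM scaling between libraries. *Mpo*, which encodes myeloperoxidase, read 14997, 14649.9, 15381 and 13304.5 CPM in O-WT 1 to 4 and 16069, 16114, 15500 and 14987 CPM in O-NR 1 to 4. *Elane*, neutrophil elastase, read 1442, 1383, 1995 and 1527 CPM in O-WT and 1731, 1766, 1678 and 1761 CPM in O-NR. Both groups overlapped for both genes, and their log2 fold changes (O-NR over O-WT) were 0.10 ± 0.07 and 0.13 ± 0.10 (SE). On the scale of a joint fit with the stem cells and common lymphoid progenitors of the same cohort, *Mpo* averaged 17184 ± 1598 CPM in O-WT GMPs, 3.76 ± 1.06 in O-WT HSCs and 264 ± 80.0 in O-WT CLPs (SD, n = 4 each). The sorting antigens were present, with *Kit* at 260.1 to 338 CPM, *Cd34* at 186 to 232, *Fcgr3* at 108 to 127 and *Fcgr2b* at 67.5 to 86.8. *Ly6a*, which encodes Sca1, stayed at 0.323 to 0.761 CPM and *Il7r*, the lymphoid receptor excluded from this gate, at 0.628 to 3.63. Of the transcripts that would mark the megakaryocyte and erythroid side of common myeloid progenitors, *Gata2* reached 29.5 to 149 CPM and *Itga2b* 27.8 to 99.8, while *Gata1* stayed between 4.29 and 9.82 and *Klf1* and *Epor* at or below 2.42 CPM. *Fcgr3*, *Mpo* and *Elane* were thus high in each of the 8 libraries, and the Fcgr- name of the label field was not used.

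Counted reads ranged from 11755798 to 18213674 per library in O-WT and from 11998451 to 14912338 in O-NR. *Herpud1*, for example, rested on 637 to 1685 reads a library, and *Id2*, one of the lowest transcripts named here, on 30 to 121. The libraries differed in ways the labels do not explain. O-WT 4 had the fewest reads, the lowest share of the ribosomal RNA-like transcripts Gm23935, Gm26917 and Gm42418 (15.8% against 17.7% to 21.6% elsewhere) and the highest summed CPM of olfactory and vomeronasal receptor genes (2376 against 858 to 1987), which blood cells are not known to use. O-NR 4 stood apart by its monocyte transcripts, as given further on. No label names a batch, so no values within a batch could be given, and each library was left out in turn instead.

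Of 13486 transcripts with more than 3 CPM in at least 4 of the 8 GMP libraries, 133 had an unadjusted p-value below 0.01 (0.986%), of which 32 were higher (0.237%) and 101 lower (0.749%) in O-NR. A threshold of 0.01 lets through a share of about 0.01 where nothing differs, and the count of 133 was no larger than that. These 133 are called changed here. An unadjusted p of 0.01 is one of the thresholds the study names, beside a fold change of 1.5 and a false discovery rate of 0.05, and none had a Benjamini-Hochberg adjusted p-value below 0.05 in edgeR's quasi-likelihood fit, where the smallest was 0.135. At an unadjusted threshold of 0.05 the count was 651 (4.83%), and DESeq2 gave 8 transcripts below 0.05 after adjustment, all lower in O-NR (*Herpud1*, *Dynll1*, *Banp*, *Dnaja1*, *Cbfa2t3*, *Hspa8*, *Caskin2* and *9430015G10Rik*). The share of lower calls was 75.9% with TMM scaling, 58.5% with upper quartile scaling and 48.6% without scaling beyond the library total, so the surplus of lower calls depended on the scaling. The effects were small. The called transcripts had a median absolute log2 fold change of 0.33 and ran from −0.98 to 0.67, and 14 of them exceeded a 1.5-fold change. The 4 O-NR values lay wholly apart from the 4 O-WT values for 107 of the 133, against 3.03% of all transcripts tested. Small p-values and separated groups come from the same 8 values, so this separation adds no support. The same holds for the transcripts named below, many of which were picked for groups that did not overlap. Many were also picked for the smallest p-values in these 8 libraries, so a call kept when a library is left out is not independent support either. Leaving out O-WT 4 raised the count to 248, with 129 higher, leaving out O-NR 4 raised it to 292, and leaving out O-NR 1 or O-NR 3 lowered it to 85 or 62. In one model of all 24 libraries of the cohort, which tested 22573 transcripts, 25 were called, 7 of them among the 133.

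**Figure D1:**
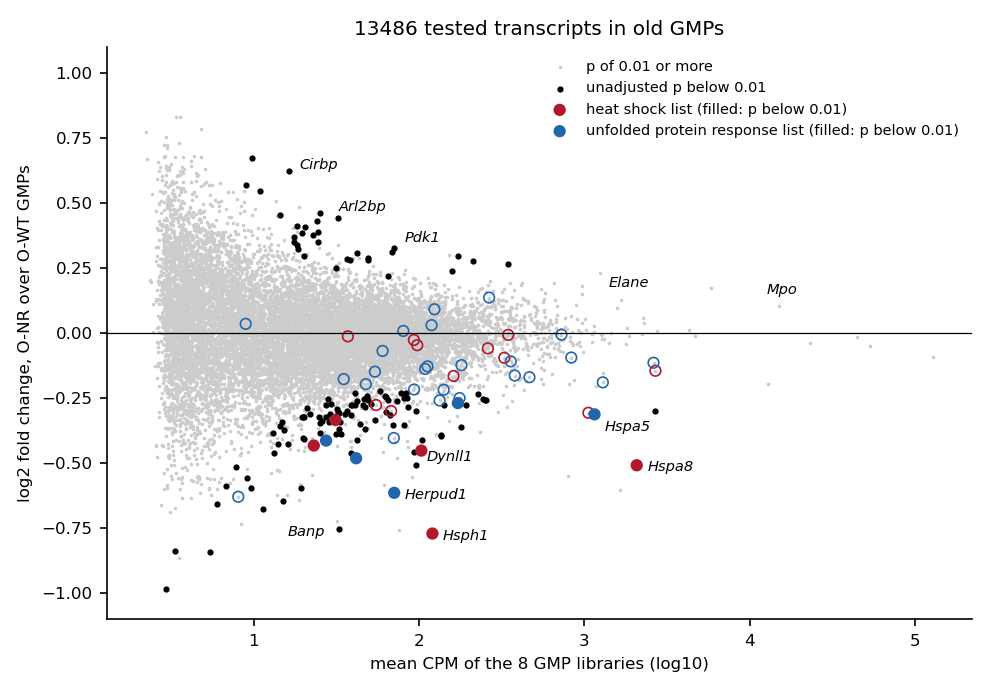
Each point is 1 of 13486 transcripts, with its mean CPM over the 8 GMP libraries (log10, x axis) and its log2 fold change of O-NR over O-WT (y axis). Black and filled points have an unadjusted p below 0.01, and circles mark the heat shock (red) and unfolded protein response (blue) lists, which lie mostly below 0, while *Mpo* and *Elane* lie close to it.

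Of 20 listed heat shock genes, which encode chaperones mostly of the cytosol, 16 were tested. In O-NR GMPs 5 of them fell, 11 did not pass the test and none rose, beside 0.749% of all transcripts called lower (positions are on mm10). All gene lists used here were written with earlier results of these data known, so such counts beside a share are not independent support. In the model of 24 libraries *Hsph1* was the only one of these 16 called, and *Hspa1b*, a member outside the 16, is given below. The 4 O-NR values of 4 members lay wholly below the O-WT values, beside 1.87% of all transcripts. All 16 fold changes were below 0 with TMM scaling and 14 with upper quartile scaling, with a median of −0.22 against −0.0018 over all transcripts tested. *Hspa8*, the constitutive Hsc70 chaperone (chr9:40800984-40810087, plus strand), read 1948, 2875, 2249.7 and 2668 CPM in O-WT 1 to 4 and 1900.5, 1671, 1472 and 1805 CPM in O-NR 1 to 4. Every O-NR library lay below every O-WT library, though O-WT 1 came close to O-NR 1. The log2 fold change was −0.51 ± 0.11 (SE), with an adjusted p of 0.674 by edgeR and 0.021 by DESeq2. *Dnaja1*, a J-domain partner that hands clients to Hsp70 proteins (chr4:40722150-40737149, plus strand), read 102, 137, 115 and 124 CPM in O-WT and 91.2, 88.9, 81.6 and 87.6 CPM in O-NR. Its groups did not overlap, and it fell by 0.45 ± 0.09 on the log2 scale (edgeR adjusted p = 0.408, DESeq2 adjusted p = 0.00637). Over the alternatives of test, scaling, filter and model, the adjusted p-values of these genes and of *Herpud1* and *Banp* below reached up to 1.00, in the model of 24 libraries. *Hsph1*, the Hsp110 nucleotide exchange factor of Hsp70 (chr5:149614287-149636376, minus strand), showed the largest decrease of the tested members at −0.77 ± 0.18. It read 104, 189, 117 and 198 CPM in O-WT against 96.2, 84.9, 70.1 and 105.2 CPM in O-NR, so that O-WT 2 and O-WT 4 were well above the rest while O-WT 1 lay just below O-NR 4. *Bag3*, a co-chaperone of selective autophagy, fell from 26.6 ± 4.39 to 19.7 ± 2.01 CPM (SD, n = 4 each, log2 fold change −0.43 ± 0.12). *Dnajb1*, the inducible Hsp40, fell from 34.9 ± 5.004 to 27.7 ± 0.947 CPM (SD, n = 4 each, log2 fold change −0.33 ± 0.10), and the groups of both genes did not overlap.

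The members that did not pass the test included the abundant cytosolic Hsp90 chaperones. *Hsp90aa1*, the inducible form, read 812.5, 1367, 968 and 1532 CPM in O-WT and 1037, 927, 787 and 1031 CPM in O-NR, with a log2 fold change of −0.31 ± 0.16. Mitochondrial *Hspd1* and *Hspe1*, which encode the matrix chaperonin and its lid, had log2 fold changes of −0.01 ± 0.09 and −0.03 ± 0.13, and *Hsf1*, the factor that drives the response, −0.01 ± 0.08. The strictly stress-inducible Hsp70 genes *Hspa1a* and *Hspa1b* did not pass the CPM filter and were not tested in the comparison above. *Hspa1b*, a list member described here although it was not tested, read 2.07, 8.68, 4.01 and 12.4 CPM in O-WT and 0.631, 0.733, 1.93 and 1.40 CPM in O-NR, which is 9 to 154 reads a library, and its groups did not overlap. With the filter lowered to 1 CPM its log2 fold change was −2.54 ± 0.38 and its adjusted p 0.00131 by edgeR's quasi-likelihood test, and in one model of 24 libraries these were −2.53 ± 0.47 and 0.0404. Without any filter, in a fit of 52453 transcripts, its SE was 0.29 and the edgeR adjusted p 1.09e-14, from the same few reads. *Hspa1b* was named after its values had been seen, so these p-values add no support. The fits that left out a library asked for the CPM limit in fewer libraries than the main filter. *Hspa1b* met this only without O-WT 1 or an O-NR library, and only through O-WT libraries, where it was high. There its log2 fold changes were −2.89 to −2.33, with edgeR adjusted p-values of 0.0939 to 1.00. *Hspa1a* read 0.645, 3.43, 1.94 and 4.44 CPM in O-WT and 0.733 to 1.16 CPM in O-NR, with overlapping groups. This gene pair has nearly identical coding sequences, and how multi-mapping reads were counted was not stated, so the split between them is uncertain.

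The summed CPM of the heat shock list shows which libraries carried the difference. O-WT 1 to 4 reached 6785, 9688, 7213 and 9369 CPM, and O-NR 1 to 4 reached 7221, 6712, 5970.3 and 7489 CPM. O-WT 2 and O-WT 4 exceeded every O-NR library, whereas O-WT 1 and O-WT 3 lay within the O-NR range. Without O-WT 2, 3 members were called lower (*Hspa8*, *Dnaja1* and *Hsph1*) and 11 of 16 fold changes were below 0, without O-WT 4 these numbers were 4 and 13, and without O-WT 1 they were 8 and 16. *Bag3* was not called without O-WT 2 (log2 fold change −0.31), and *Dnajb1* was not called without O-NR 1, O-NR 2, O-WT 2 or O-WT 4 (−0.33 to −0.26). O-WT 4 is also the library with the fewest reads and the lowest ribosomal RNA-like share, and whether that has a part in its heat shock level was not tested.

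**Figure D2:**
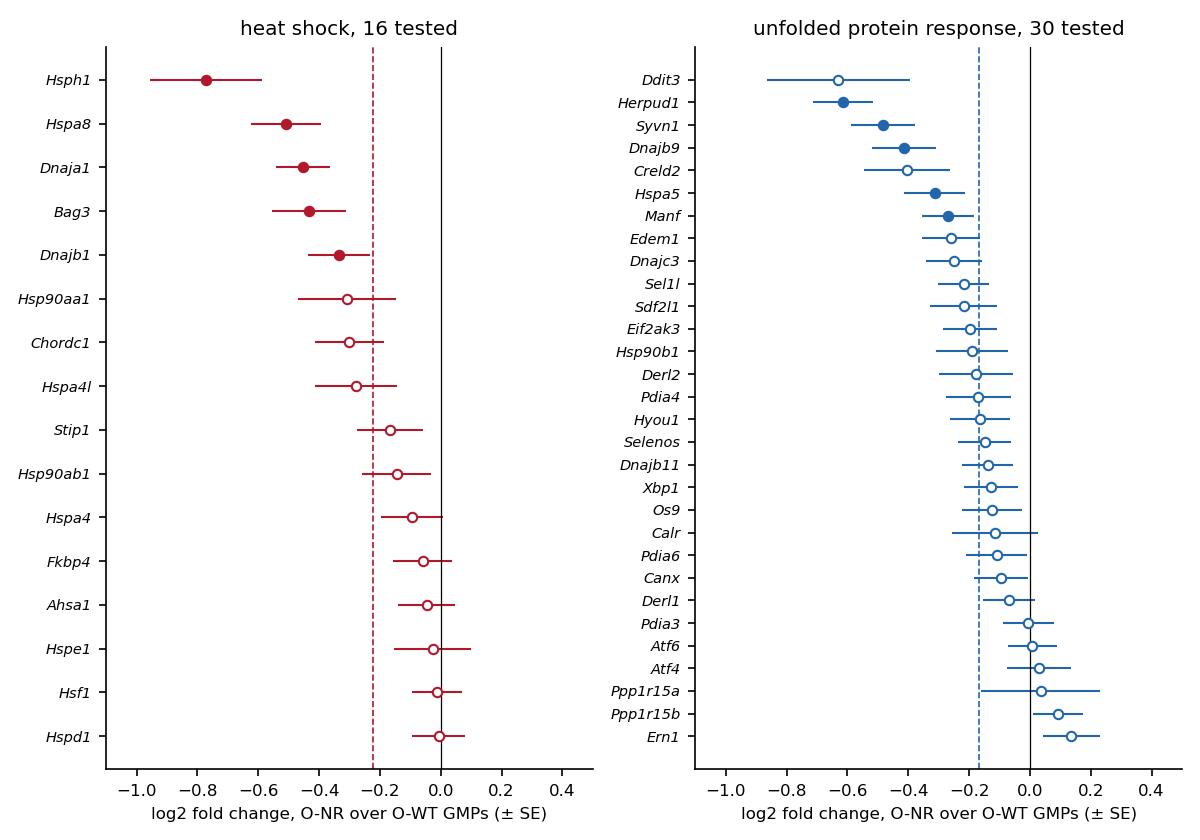
Log2 fold change of O-NR over O-WT GMPs with its SE for every tested member of the heat shock list (left, 16) and of the unfolded protein response list (right, 30), ordered by size. Filled points have an unadjusted p below 0.01, and the dashed lines mark the list medians of −0.22 and −0.17.

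Of 32 listed genes of the ER quality control machinery 30 were tested. Of these, 5 fell, 25 did not pass the test and none rose, beside 0.749% of all transcripts called lower. This list too was written with earlier results of these data known, so the count is not independent support. Without scaling 3 were called, and in the model of 24 libraries *Herpud1* was the only one. With all 8 libraries 25 of the 30 fold changes were below 0 with TMM scaling and 24 with upper quartile scaling, with a median of −0.17. *Herpud1*, an ER membrane protein that organises the degradation of misfolded proteins (chr8:94386438-94395377, plus strand), had the smallest p-value of all transcripts. It read 73.3, 96.2, 95.002 and 78.2 CPM in O-WT 1 to 4 and 60.5, 59.3, 51.4 and 52.6 CPM in O-NR 1 to 4. The groups stood clearly apart, and the log2 fold change of −0.61 ± 0.10 stayed between −0.69 and −0.55 whichever library was left out (edgeR adjusted p = 0.135, DESeq2 adjusted p = 0.000136). *Syvn1*, the ubiquitin ligase Hrd1 at the core of the same degradation complex (chr19:6046576-6053712, plus strand), read 47.2, 53.1, 55.0 and 38.8 CPM in O-WT and 35.3, 35.5, 31.2 and 37.3 CPM in O-NR, a fall by 0.48 ± 0.11. Its groups did not overlap, with O-WT 4 and O-NR 4 closest to each other. *Dnajb9*, an ER J-protein that works with BiP, read 29.8 to 32.8 CPM in the 4 O-WT libraries and 18.3 to 26.03 CPM in the 4 O-NR libraries (log2 fold change −0.41 ± 0.11). *Hspa5*, which encodes BiP, the main ER Hsp70 and sensor of unfolded protein load (chr2:34771970-34777547, plus strand), fell from 1277 ± 149 to 1028 ± 126 CPM (SD, n = 4 each). *Manf*, a secreted ER stress factor, fell from 188 ± 18.5 to 156 ± 13.8 CPM (SD, n = 4 each). Neither *Hspa5* nor *Manf* was called without O-NR 2, O-NR 3, O-WT 2 or O-WT 4, where their log2 fold changes lay between −0.31 and −0.21. Part of *Manf* overlaps *Rbm15b* on its strand and *Dcaf1* on the other, so its count is uncertain.

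Further members pointed down without passing the test. *Ddit3*, the stress factor Chop, had a log2 fold change of −0.63 ± 0.24 at 5.04 to 14.6 CPM, *Creld2*, an ER-resident isomerase, −0.40 ± 0.14, and *Dnajc3*, an ER co-chaperone, −0.25 ± 0.09. The upstream regulators showed smaller differences. *Xbp1* had −0.13 ± 0.09, *Atf6* 0.01 ± 0.08 and *Atf4* 0.03 ± 0.10, and *Ern1*, which encodes the sensor Ire1, had the highest value of the list at 0.14 ± 0.09. Amino acid response genes, which Atf4 drives, had a median of 0.12 over 13 tested members with none called. The summed CPM of the ER list was 9305, 12069.8, 9301 and 11226 in O-WT and 9976, 9394, 8339 and 10101 in O-NR. As for the heat shock list, O-WT 2 and O-WT 4 lay above all other libraries and the rest overlapped. The count of called members was 3 without O-WT 2, O-NR 2 or O-NR 3 (*Herpud1*, *Dnajb9* and *Syvn1* each time) and 8 without O-WT 1 or O-NR 4.

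The promoters of the called ER genes are shown because 3 of them carry the sequence element through which unfolded protein response factors act. Each is the stretch of 250 bases before the RefSeq start (GRCm38.p6), 5′ to 3′ on the gene's own strand, with the ER stress element in capitals. The coordinates are chr8:94386179-94386428 for *Herpud1*, chr19:6046326-6046575 for *Syvn1* and chr2:34771840-34772089 for *Hspa5*, all on the plus strand.
Herpud1: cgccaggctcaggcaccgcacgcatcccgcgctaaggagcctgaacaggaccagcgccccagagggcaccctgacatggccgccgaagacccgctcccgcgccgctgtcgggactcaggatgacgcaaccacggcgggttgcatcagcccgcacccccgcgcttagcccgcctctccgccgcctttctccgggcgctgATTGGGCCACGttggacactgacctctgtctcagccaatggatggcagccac
Syvn1: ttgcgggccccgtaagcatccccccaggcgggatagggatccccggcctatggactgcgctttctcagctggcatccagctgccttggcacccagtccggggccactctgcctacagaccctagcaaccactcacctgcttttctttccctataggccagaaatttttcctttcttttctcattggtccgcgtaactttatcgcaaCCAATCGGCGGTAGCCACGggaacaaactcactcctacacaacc
Hspa5: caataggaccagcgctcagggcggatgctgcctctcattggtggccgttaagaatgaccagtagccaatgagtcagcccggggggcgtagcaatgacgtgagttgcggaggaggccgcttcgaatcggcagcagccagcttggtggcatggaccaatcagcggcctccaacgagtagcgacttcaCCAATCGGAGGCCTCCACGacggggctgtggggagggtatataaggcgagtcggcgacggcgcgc
The *Syvn1* and *Hspa5* elements hold CCAAT and CCACG with 9 bases of any kind between them and end 26 and 47 bases before the start, and the *Herpud1* element is the shorter form ATTGG and CCACG with 1 base between them and ends 42 bases before it. The letters CCACG are common to both forms. Both were searched on both strands in 32851 promoters that each run from 250 bases before to 50 bases after the start, and they occurred in 0.119% and 0.0365% of them. Among 27 genes of the ER list with a promoter in the table, 9 held the longer form (*Calr*, *Canx*, *Creld2*, *Derl3*, *Dnajc3*, *Hsp90b1*, *Hspa5*, *Pdia6* and *Syvn1*) and 2 the shorter (*Dnajb11* and *Herpud1*). Only *Hspa5*, *Syvn1* and *Herpud1* of these were called. *Derl3* did not pass the CPM filter and was not tested, and the others, such as *Calr* (−0.11 ± 0.14) and *Canx* (−0.09 ± 0.09), were not called. The list was compiled from known unfolded protein response genes, so the share of members with the element is not independent of how the list was made. Of the 99 called transcripts with a promoter in the table, *Hspa5*, *Syvn1* and *Herpud1* were the only ones with either form. Among all tested genes with a promoter, 0.159% held the longer form and 0.0892% the shorter. The heat shock element, searched as GAA, TTC and GAA with 2 bases between each, occurred in 0.603% of the promoters and in 3 of the 99, *Hsph1*, *Mga* and *Tra2b*, of which *Hsph1* has it after its start. *Manf* and *Hspa8* were not matched to a promoter. A match describes these letters in this window and does not show that a factor was bound.

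Other transcripts that fell were not chaperones. *Banp*, a nuclear matrix protein that binds unmethylated CGCG motifs at promoters (chr8:121949750-122029258, plus strand), read 32.9, 48.2, 46.7 and 38.3 CPM in O-WT 1 to 4 and 27.4, 26.6, 22.02 and 22.3 CPM in O-NR 1 to 4. It fell by 0.75 ± 0.12 on the log2 scale, with an adjusted p of 0.135 by edgeR and 0.000324 by DESeq2, and its groups did not overlap. *Dynll1*, the light chain of cytoplasmic dynein and a hub for many other partners (chr5:115297110-115300999, minus strand), read 113, 121, 108 and 108.5 CPM in O-WT and 91.3, 78.9, 70.5 and 76.4 CPM in O-NR. Its log2 fold change was −0.51 ± 0.08, and it was the only one of 19 tested dynein and dynactin genes to be called, the median of that list being −0.05. *Cbfa2t3*, the corepressor Eto2 of haematopoietic progenitors (chr8:122625141-122699109, minus strand), read 100.5, 124, 102 and 108 CPM in O-WT and 83.9, 86.4, 77.3 and 67.98 CPM in O-NR, a fall by 0.46 ± 0.09. *Caskin2*, a scaffold protein, fell from 14.1 ± 1.74 to 8.81 ± 0.845 CPM (SD, n = 4 each, log2 fold change −0.68 ± 0.14). None of these 4 calls was lost when a library was left out.

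**Figure D3:**
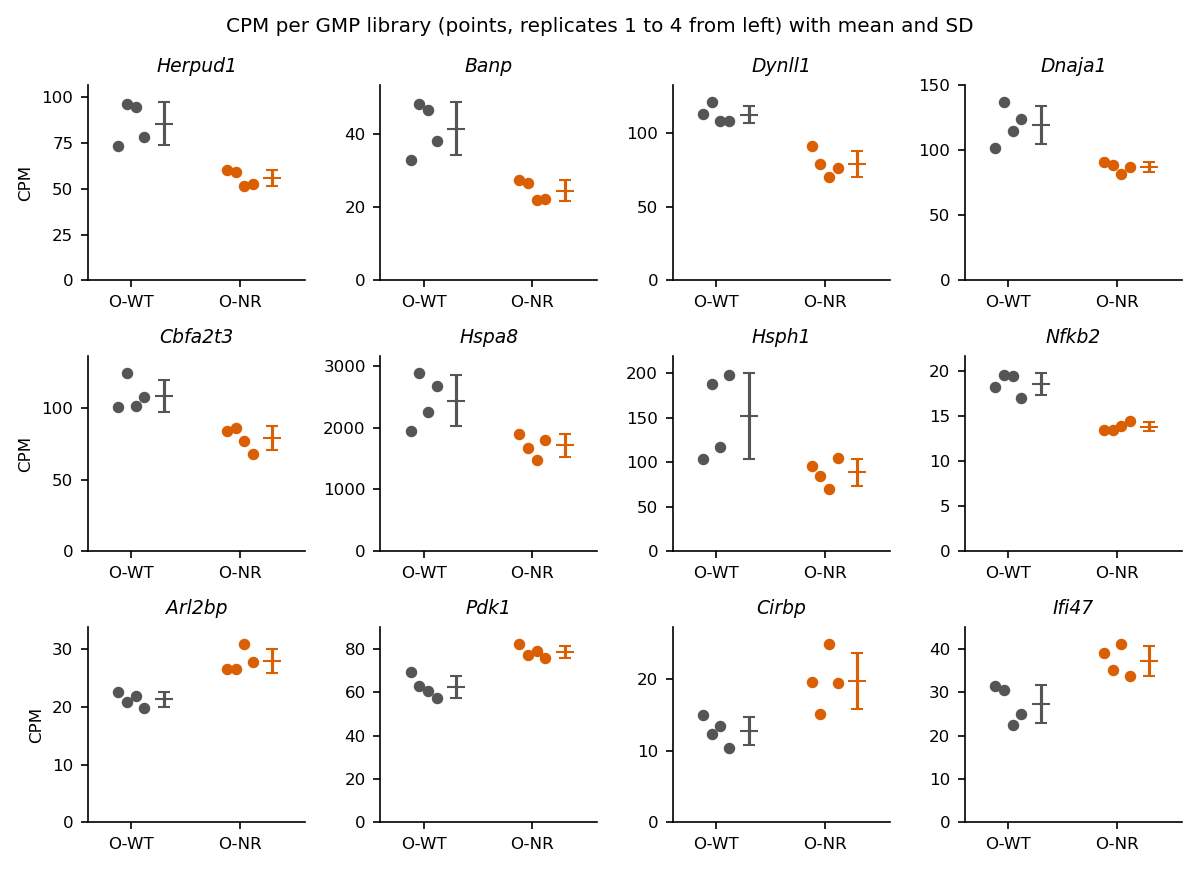
CPM of 12 transcripts in each GMP library (points, O-WT grey and O-NR orange, replicates 1 to 4 from left to right) with the group mean and SD beside them, on axes that start at 0. The groups do not overlap in any panel except *Hsph1*, where O-WT 2 and O-WT 4 stand above the other 6 libraries.

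Signalling and regulatory genes were among the remaining lower calls. *Nfkb2*, the p100 precursor of the non-canonical NF-kappaB pathway, read 18.1, 19.5, 19.4 and 17.0 CPM in O-WT and 13.4, 13.4, 13.9 and 14.5 CPM in O-NR (log2 fold change −0.43 ± 0.10). It was the only member called of 16 tested inflammatory genes, whose median was −0.05. *Gna15*, a G protein alpha subunit of haematopoietic cells, fell by 0.41 ± 0.10, *Luc7l*, a splicing factor, by 0.41 ± 0.09, *Exog*, a mitochondrial nuclease, by 0.38 ± 0.09, and *9430015G10Rik* by 0.39 ± 0.08. The groups of these 4 did not overlap either, and none of the 4 calls was lost when a library was left out. *Sirt7*, a nucleolar sirtuin and the only called gene of 22 tested NAD consumers, read 34.7 to 42.1 CPM in O-WT and 27.0 to 34.4 CPM in O-NR (−0.34 ± 0.10). *Myc*, which drives growth and ribosome production, fell from 278 ± 18.3 to 232 ± 23.2 CPM (SD, n = 4 each) with overlapping groups, while 20 other genes of ribosome biogenesis were not called. *Id2*, an inhibitor of E proteins, read 4.78, 5.88, 7.47 and 9.77 CPM in O-WT and 4.35, 4.06, 4.54 and 2.48 CPM in O-NR (−0.84 ± 0.27). *Sirt7* was not called without O-NR 1, O-NR 2, O-NR 3 or O-WT 2 (−0.33 to −0.28), *Myc* without 6 of the 8 libraries, all but O-NR 1 and O-WT 4 (−0.26 to −0.22), and *Id2* without O-NR 2, O-NR 4, O-WT 3 or O-WT 4 (−0.87 to −0.64). The largest decrease, that of *Gm45041* (−0.98 ± 0.25, 22 to 66 reads a library), and that of *Gm15344* (−0.84 ± 0.25, 25 to 78 reads) lie within *Zdhhc13* and *Hsp90b1* on the same strand, so their reads cannot be told from those of their hosts. *Gm15344* was not called without O-NR 2, O-NR 3, O-NR 4 or O-WT 3 (−0.87 to −0.75).

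Fewer transcripts rose. *Arl2bp*, which binds the small GTPase Arl2 at centrosomes and mitochondria (chr8:94666600-94674425, plus strand), read 22.7, 20.9, 21.9 and 19.8 CPM in O-WT 1 to 4 and 26.7, 26.6, 30.9 and 27.8 CPM in O-NR 1 to 4 (log2 fold change 0.39 ± 0.09). *Pdk1*, the kinase that switches off pyruvate dehydrogenase (chr2:71873224-71903858, plus strand), read 69.3, 62.8, 60.8 and 57.4 CPM in O-WT and 82.1, 77.1, 79.0 and 76.0 CPM in O-NR, a rise of 0.33 ± 0.08. *Cirbp*, an RNA-binding protein induced by mild cold (chr10:80165985-80172786, plus strand), read 15.0, 12.3, 13.4 and 10.3 CPM in O-WT and 19.6, 15.2, 24.9 and 19.4 CPM in O-NR. Its log2 fold change was 0.62 ± 0.15, and O-NR 2 lay only just above O-WT 1. The related cold-inducible *Rbm3* did not pass the test, with −0.13 ± 0.11 and overlapping groups at 146 to 223 CPM. *Zc3h6*, a zinc finger protein, showed the largest increase at 0.67 ± 0.17, from 7.54 ± 1.54 to 12.01 ± 1.51 CPM (SD, n = 4 each). *Cenpb*, which binds centromeric satellite repeats, rose by 0.31 ± 0.08, though its annotation overlaps *Spef1* on the same strand, and *Slc20a2*, a phosphate transporter, by 0.38 ± 0.10. None of these 6 calls was lost when a library was left out, and the edgeR adjusted p-values ran from 0.674 to 0.745.

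Lower in the order of p-values, *Nln* (neurolysin), *Tfb2m* (a mitochondrial transcription factor), *Abcg2* (an efflux transporter of stem and progenitor cells) and *Hnrnpdl* (a splicing regulator) rose by 0.28, 0.37, 0.41 and 0.30, each with non-overlapping groups. Each of these was lost without at least 1 library, *Nln* without O-NR 1 (0.25), *Tfb2m* without O-NR 2 or O-NR 3 (0.34 or 0.33), *Abcg2* without O-NR 1 or O-NR 3 (0.37 or 0.35) and *Hnrnpdl* without O-WT 1 or O-WT 3 (0.28 or 0.23). *Gm6548* (0.57 ± 0.15) is annotated as a processed pseudogene, whose reads can be shared with a parent gene, so its count is uncertain, and it was not called without O-NR 1 (0.50). *Eya1* (0.55 ± 0.17), a developmental phosphatase, rose with overlapping groups and was not called without O-NR 1, O-NR 2, O-NR 3, O-WT 2 or O-WT 3 (0.44 to 0.56).

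Genes that interferon induces had mostly positive fold changes and few calls. Of 28 tested, 2 rose, beside 0.237% of all transcripts called higher, and 21 fold changes were above 0, with a median of 0.20. None was called in the model of 24 libraries. *Ifi47*, an interferon-inducible GTPase, read 31.4, 30.6, 22.3 and 24.9 CPM in O-WT and 39.0, 35.04, 41.0 and 33.8 CPM in O-NR (0.44 ± 0.11), but its annotation overlaps *Olfr56* on the same strand, so that reads of the pair cannot be told apart. *Ifih1*, the RNA sensor Mda5, rose from 18.01 ± 1.43 to 22.1 ± 1.07 CPM (SD, n = 4 each, 0.30 ± 0.10) but was not called when any library other than O-WT 2 was left out (0.26 to 0.31). *Stat2* was called lower without O-WT 3 and *Gbp3* without O-NR 4, both named after their values were seen. Without O-NR 4 the list median was 0.06 and 12 of 28 fold changes were below 0, while *Ifi47* was called whichever library was left out.

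Metabolic gene lists showed little change. None of 25 glycolytic genes, 13 tricarboxylic acid cycle enzymes, 78 nuclear-encoded respiratory chain subunits or 8 mitochondrial messenger RNAs was called, and their medians were 0.02, 0.06, 0.01 and 0.04. *Pdk1* was the only call among 13 tested genes of pyruvate entry and the only one among 20 hypoxia genes. The genes that make NAD from its precursors gave no call among 15 tested, with a median of 0.08. *Nampt*, the rate-limiting enzyme of the salvage route, read 57.6 to 66.9 CPM in O-WT and 60.7 to 89.9 CPM in O-NR (log2 fold change 0.21 ± 0.11). *mt-Nd1* had the smallest p of the mitochondrial messenger RNAs, with a log2 fold change of 0.23 ± 0.09 that did not pass the test. No cytosolic ribosomal protein gene (77 tested), mitochondrial ribosomal protein gene (77), mitophagy gene (19) or antioxidant gene (22) was called. In the S phase list of 36, *Pole*, the catalytic subunit of DNA polymerase epsilon, rose by 0.24 ± 0.07 and *Ccne2*, cyclin E2, fell by 0.27 ± 0.09, and none of 30 mitosis genes was called. *Pole* was not called without O-NR 1, O-NR 2, O-WT 2 or O-WT 4 (0.20 to 0.24), nor *Ccne2* without O-NR 1, O-NR 2, O-NR 3, O-WT 1 or O-WT 2 (−0.30 to −0.23). Immediate early genes had a median of −0.22 over 16 tested, with *Myc* as the only call.

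The myeloid identity of the cells was measured through lists of lineage genes. None of 10 primary granule genes was called, their median was 0.05, and their summed CPM was 17281 to 20486 in O-WT and 19290 to 20956 in O-NR. Of the 200 tested transcripts with the largest fold change of GMPs over CLPs, averaged over both treatments, 2 were lower and none higher in O-NR (median −0.05), and of the 200 at the other end 1 was lower and 2 were higher (median 0.02). Beside these stand 0.749% of all transcripts called lower and 0.237% called higher, and counts this small are not read as a difference. Secondary granule genes, which mark later neutrophils, were near the floor, with sums of 33.0 to 72.9 CPM. Erythroid, T and NK cell and lymphoid lists summed to at most 53.85 CPM in any library and gave no call. In bulk samples, fewer cells of a type and less RNA per cell cannot be told apart.

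Monocyte genes were lower in 3 O-NR libraries and highest in the fourth. Their summed CPM was 913, 740, 1132 and 623 in O-WT 1 to 4 and 481, 465, 561 and 1565 in O-NR 1 to 4, so that O-NR 1, 2 and 3 lay below every O-WT library and O-NR 4 above all. *F13a1*, coagulation factor XIII of the monocyte lineage, read 423, 360, 540 and 279 CPM in O-WT and 199, 197, 232 and 769 CPM in O-NR. *Irf8*, the factor that directs GMPs toward monocytes and dendritic cells, read 184, 170, 204 and 128 CPM in O-WT and 94.0, 90.1, 108 and 355 CPM in O-NR. *Klf4*, a further monocyte factor, read 11.4, 9.71, 15.8 and 10.4 CPM in O-WT and 3.79, 5.33, 4.62 and 25.1 CPM in O-NR. With all 8 libraries, none of 10 tested monocyte genes was called and the list median was −0.16. Without O-NR 4, 8 of the 10 were called lower with a median of −0.69, beside 210 of all 13828 transcripts tested in that fit. The monocyte sum, *Irf8* and *Klf4* were highest in O-NR 4, so leaving it out lowers their O-NR values by construction. Calls and p-values of that fit therefore add no support for these genes. In it 11 transcripts in all reached an adjusted p below 0.05 by edgeR's quasi-likelihood test, each of them lower in O-NR. They were *Fosl2*, *Irf8*, *Klf4*, *Mpeg1*, *Met*, *F13a1*, *Tpm4*, *Cyth4*, *Ctss*, *Herpud1* and *Banp*. In this edgeR fit *Irf8* had −0.82 ± 0.13 (adjusted p = 0.0212), *Klf4* −1.37 ± 0.22 (0.0212), *F13a1* −0.94 ± 0.16 (0.0285) and *Ctss*, a lysosomal protease, −0.97 ± 0.18 (0.0474). With O-NR 4 included, *Irf8* had −0.09 ± 0.35 and *Klf4* −0.30 ± 0.46, with adjusted p-values of 0.997 by edgeR and of 0.58 or more under every alternative of scaling, test, filter or model that gave one. *Irf8*, *Klf4*, *Fosl2*, *Mpeg1*, *Met*, *Tpm4* and *Cyth4* were named after their values had been seen. O-NR 4 also had the lowest *Cd74* (4.13 CPM against 21.5 to 67.4), *Gata2* (29.5 against 54.9 to 149) and *Cebpe* (20.2 against 27.8 to 66.1) of the 8 libraries and the highest *Ighm* (98.7 against 24.9 to 52.9). The heat shock and ER results did not rest on it, since 5 and 8 members were called lower without O-NR 4.

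Basophil, mast cell and eosinophil genes varied among the O-WT libraries. Their summed CPM was 5954, 4815, 1329 and 2862 in O-WT and 2255, 2792, 3132 and 2242 in O-NR, so that O-WT 1 and O-WT 2 exceeded every O-NR library and O-WT 3 lay below them all. *Prg2*, the eosinophil major basic protein and the most abundant member, read 3358, 2453, 621 and 1483 CPM in O-WT and 1085, 1325, 1677 and 1125 CPM in O-NR. *Epx*, eosinophil peroxidase, read 1582, 1278, 307 and 614 CPM in O-WT and 541, 655, 706 and 681 CPM in O-NR, and both genes thus overlapped between groups. *Prss34*, a basophil protease, read 50.9 to 145 CPM in O-WT and 25.9 to 88.7 CPM in O-NR, again with overlapping groups. None of 13 tested members was called with all libraries (median −0.53), 6 were called lower without O-WT 3 (median −0.74) and none without O-WT 1 (median −0.23). With all 8 libraries 9 were called lower without a filter, 3 with the CPM limit at 1, 3 with 2 RUVr factors of unwanted variation and 1 with the replicate number as a block, and edgeR's adjusted p was below 0.05 for 1 of them, *Prss34*, without a filter.

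**Figure D4:**
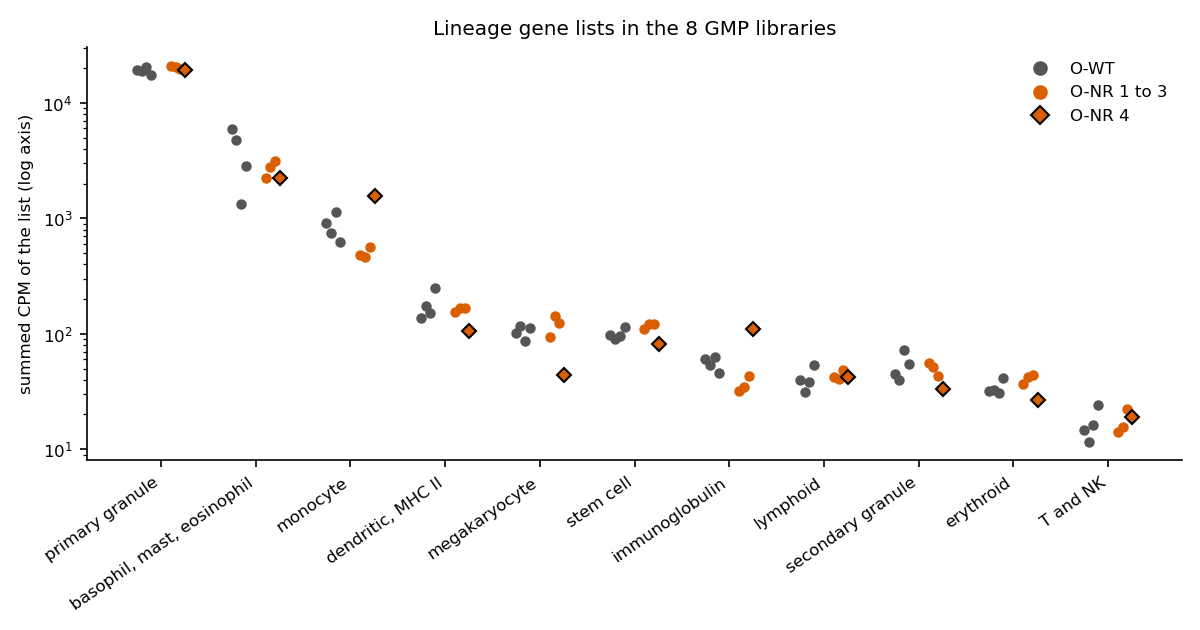
Summed CPM (log axis) of 11 lineage gene lists in the 4 O-WT (grey) and 4 O-NR (orange) GMP libraries, with O-NR 4 drawn as a diamond. Primary granule genes lie close together in all 8, O-NR 4 is the highest library for monocyte and immunoglobulin genes, and the basophil, mast cell and eosinophil sums of O-WT spread from 1329 to 5954.

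The same transcripts were then read in HSCs and CLPs of this cohort in one model of 24 libraries, to ask whether the effect of NR differed between cell types. The 3 cell types carry the same replicate numbers and may come from the same mice, so they are not independent. *Hsph1* had log2 fold changes of −0.76 ± 0.25 in GMPs, −0.79 ± 0.26 in HSCs and −0.96 ± 0.26 in CLPs. *Cirbp* had 0.62 ± 0.26 in GMPs, 0.72 ± 0.26 in HSCs and 0.82 ± 0.26 in CLPs. *Hspa8* (−0.50, −0.38 and −0.47), *Dnaja1* (−0.45, −0.52 and −0.34), *Arl2bp* (0.39, 0.52 and 0.52) and *Pdk1* (0.33, 0.45 and 0.42) were likewise of similar size in the order GMPs, HSCs and CLPs. Their SEs were 0.20 to 0.27, and none of them was called in any cell type in this model. *Banp* had −0.75 ± 0.21, −0.57 ± 0.21 and −0.36 ± 0.21 in the same order, and *Dynll1* −0.50 ± 0.21, −0.62 ± 0.22 and −0.34 ± 0.22. Both were called lower in HSCs, so neither is a finding of GMPs alone. *Herpud1*, in contrast, had −0.61 ± 0.21 in GMPs, −0.07 ± 0.21 in HSCs and −0.11 ± 0.21 in CLPs, and *Syvn1* −0.48 ± 0.21 in GMPs, 0.09 ± 0.22 in HSCs and 0.20 ± 0.21 in CLPs. The differences for *Herpud1* had unadjusted p-values of 0.0725 against HSCs and 0.0923 against CLPs by edgeR's interaction test, and those for *Syvn1* 0.0667 and 0.0293, so neither was shown to be particular to GMPs. *Caskin2* differed at the unadjusted threshold from HSCs (−0.67 ± 0.20 against 0.09 ± 0.19) but not after adjustment. Over the 30 ER genes the median lay at −0.16 for GMPs, −0.03 for HSCs and −0.05 for CLPs, and over the 16 heat shock genes at −0.21, −0.20 and −0.08, beside 0.0035, 0.09 and 0.12 over the 13486 transcripts.

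**Figure D5:**
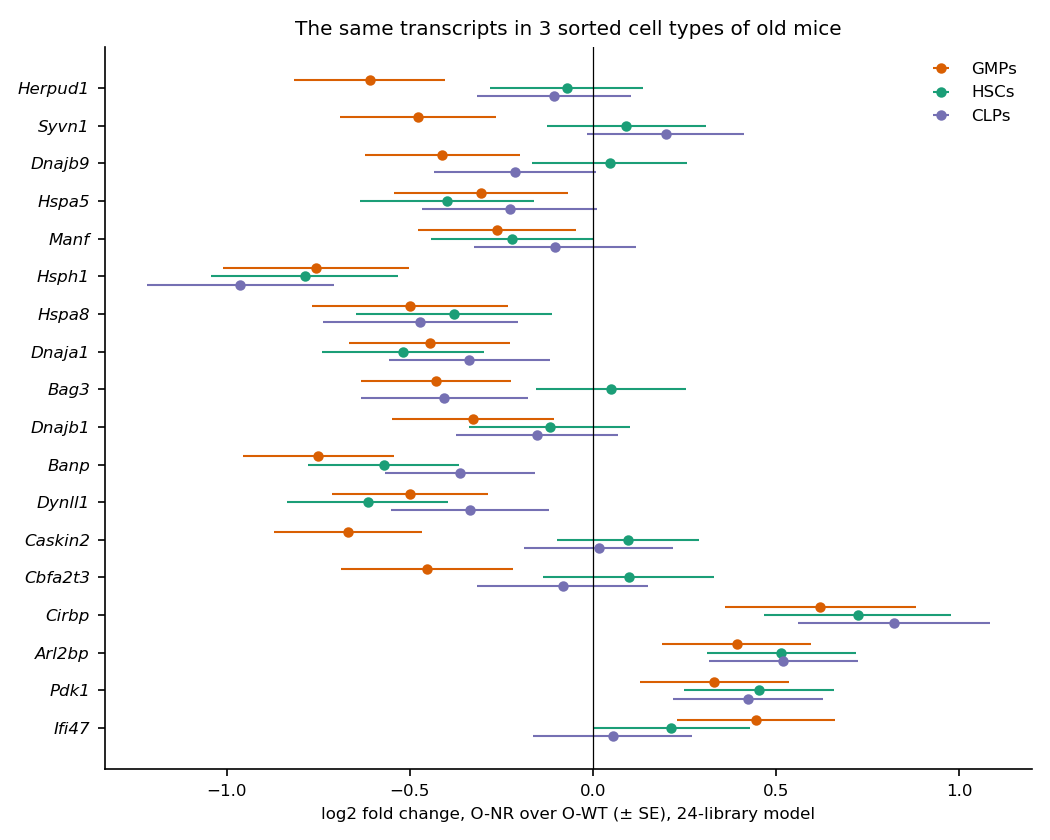
Log2 fold change of O-NR over O-WT with its SE in GMPs, HSCs and CLPs for 18 transcripts, all from one model of 24 libraries. *Hsph1*, *Hspa8*, *Dnaja1*, *Cirbp*, *Arl2bp* and *Pdk1* lie on the same side of 0 in each cell type, whereas *Herpud1*, *Syvn1*, *Caskin2* and *Cbfa2t3* lie well below 0 in GMPs and near 0 or above it in the others. For none of the latter did the effect differ between cell types at an adjusted p below 0.05 by edgeR's interaction test.

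Over all 22573 transcripts of that model, the effect of NR differed between GMPs and HSCs for 33 at an unadjusted p below 0.01 (0.146%), and between GMPs and CLPs for 91 (0.403%). After adjustment 1 transcript remained against HSCs and none against CLPs by edgeR, where 655 had an unadjusted p below 0.05 and the smallest adjusted value was 0.992. The transcript was *Ighm*, the heavy chain of immunoglobulin M, with a log2 fold change of −0.01 ± 0.48 in GMPs against −4.81 ± 0.57 in HSCs (adjusted p = 0.000388 by edgeR). Its HSC levels ran from 12.98 to 422 CPM in O-WT and from 1.57 to 16.1 CPM in O-NR on the scale of this model, and its GMP levels from 36.1 to 62.9 and from 30.1 to 118 CPM. Without GMP O-NR 4 the adjusted p of edgeR was 0.0522, with upper quartile scaling it was 0.0864, with a filter that both cell types had to pass 0.143, and without any of the other 7 GMP libraries it stayed at or below 0.0272. No HSC library was left out, although the difference lay in the HSCs, so how far it rests on the O-WT library at 422 CPM was not tested.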

How the data were processed

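RNA was extracted by the study from sorted cells, made into strand-specific total RNA libraries and sequenced as pairs of 105-base reads. The authors trimmed reads with trim galore 0.4.3 and cutadapt 1.12, aligned them with STAR to mm10 with a Gencode annotation, and deposited raw featureCounts read counts per gene. The strand setting and the treatment of multi-mapping reads are not given in the sources used here. The study also names a removal of unwanted variation without its settings, so this was run only as an alternative.

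The deposited counts of the 8 GMP libraries (11755798 to 18213674 reads) were tested with edgeR 4.0.16 in R 4.3.3: TMM scaling, CPM over 3 in at least 4 libraries, glmQLFit and glmQLFTest, called at an unadjusted p below 0.01, with Benjamini-Hochberg values beside it. Log2 fold changes and SEs come from that fit, CPM from TMM-scaled totals. The 24 libraries of the cohort were fitted together for differences between cell types. The GMP fit was tested on simulated data. Positions are from Gencode M21 on mm10, matched for 54510 of 55376 symbols, and promoters from RefSeq.

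Named were sorting and lineage marker genes, the 12 transcripts per direction with the smallest p among called transcripts whose groups did not overlap, the 4 per direction with the largest change, called members of each gene list or otherwise its 2 members with the smallest p, the most abundant member of each list of other cell types, and any transcript with an adjusted p below 0.05 between cell types. Also named, after their values had been seen, were *Irf8*, *Klf4*, *Fosl2*, *Mpeg1*, *Met*, *Tpm4*, *Cyth4*, *Epx*, *Rbm3*, *Hspa1a*, *Hspa1b*, *Hsp90aa1*, *Ddit3*, *Creld2*, *Dnajc3* and the further list members whose values are given as examples. The comparison and the lists were chosen with earlier results of these data known. Alternatives changed the scaling, the test (DESeq2 1.42.0, limma 3.58.1 voom, edgeR's likelihood ratio test), the filter, the model and the libraries included.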

Additional observations from a re-analysis of the deposited data

Results flagged for a closer look

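In 386 groups of 4 libraries, the most distant library was compared with the range of its group. Of these, 21 passed the limit, which is close to the 1 in 20 that chance alone passes. The groups are not independent, since some genes were named after their values had been seen and list sums hold genes checked on their own. Such naming and overlap may also raise the count for a library: of the 21, 15 were O-NR 4. Its *F13a1* (769 CPM against 197 to 232 in the other O-NR libraries), *Irf8* (355 against 90.1 to 108), *Klf4* (25.1 against 3.79 to 5.33), *Mpeg1* (117 against 39.5 to 46.6), *Ly86* (59.5 against 15.8 to 19.7) and *Ly6c2* (254 against 94.2 to 95.9) were higher, as were *Met* (100.3 against 22.1 to 25.95), *Tpm4* (39.0 against 13.3 to 15.3), *Cyth4* (77.9 against 44.4 to 49.4), *Bcl2l1* (26.5 against 11.6 to 13.6), *Cebpd* (37.2 against 23.8 to 25.4) and *Ighm* (98.7 against 24.9 to 30.8). Its summed CPM of the monocyte list was 1565 against 465 to 561, of the plasma cell list 109.9 against 31.9 to 42.9, and of the Bcl2 family 427 against 344 to 355.

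Among O-WT libraries, O-WT 4 stood apart in the summed CPM of the inflammatory list (380.7 against 411 to 412). O-WT 2 stood apart in *Mrpl36* (22.04 CPM against 17.5 to 17.8), *Gabarapl1* (21.01 against 22.1 to 22.3) and the myeloid transcription factor list (3349.9 against 2973 to 3015), O-WT 1 in *Adgre1* (12.5 against 8.88 to 9.25) and O-WT 3 in *Optn* (17.4 against 12.6 to 13.3).

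The effect of NR on *Ighm* was 4.80 higher on the log2 scale in GMPs than in HSCs by the interaction test of edgeR (adjusted p = 0.000388). It was lower in O-NR HSCs, where 1 of the O-WT libraries reached 422 CPM.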

How the results depend on the processing

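The count of 133 was 366 (188 higher, 178 lower) without a filter, 14 (2 and 12) with a required fold change of 1.5, 25 (17 and 8) in one model of 24 libraries, 204 (79 and 125) with 1 RUVr factor of unwanted variation and 309 (112 and 197) with 2. Transcripts called higher numbered 71 with upper quartile scaling, 75 without scaling, 49 with DESeq2 and 58 with the CPM limit at 1. Adjusted p-values below 0.05 numbered 8 with DESeq2, 7 with the likelihood ratio test, 4 with the CPM limit at 1, 6 without a filter, 1 in the model of 24 libraries and 5 with 2 RUVr factors. The causes of these differences were not tested. Leaving out 1 library gave 62 to 292 calls, 15 to 129 higher, 45 to 210 lower, and 0 to 11 adjusted. Differences from HSCs numbered 18 to 98 and from CLPs 43 to 227 when 1 GMP library was left out, and 60 from CLPs with a filter that both cell types had to pass.

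Of 40 named called transcripts under 12 alternatives, 409 of 480 values stayed called and 71 did not, 34 of them in the model of 24 libraries, and none changed direction. With 1 library left out, *Irf8* ranged from −0.82 to 0.11, *Mpeg1* from −0.67 to 0.0069 and *Met* from −0.90 to 0.14, the negative ends being those without O-NR 4. Replicate numbers did not pair the samples: deviations of same-numbered libraries correlated at −0.029, 0.32, −0.055 and −0.046. With the replicate block 125 transcripts were called, 96 of them among the 133. Low transcripts such as *Hspa1b* are limited by depth, at 9 to 154 reads a library.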

Other observations

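Several further gene groups gave values that no comparison above rests on. None of 15 circadian, 11 glucocorticoid-responsive, 24 sterol and lipid synthesis, 55 replication-dependent histone or 17 small nucleolar RNA transcripts was called. Their median log2 fold changes were 0.06, −0.14, −0.06, −0.04 and −0.16. Of 16 myeloid receptor genes none was called (median −0.07). Of 15 tested myeloid transcription factors *Id2* was the only call (median −0.20), and 12 of the 15 fold changes were below 0.

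Dendritic cell and antigen presentation genes summed to 137, 174, 151 and 248 CPM in O-WT 1 to 4 and 153, 166, 168 and 105.1 CPM in O-NR 1 to 4, with none of 7 tested members called. Megakaryocyte genes summed to 87.0 to 118 CPM in O-WT and 43.9 to 143 CPM in O-NR, with O-NR 4 the lowest library. Stem cell genes had fold changes above 0 for all 7 tested members with TMM scaling (median 0.16) without a call, at sums of 81.4 to 123 CPM. Macrophage genes summed to 62.6 to 87.6 CPM (8 tested, median −0.15) and stromal and endothelial genes to 107.8 to 143 CPM (5 tested, median 0.18), and none of either was called.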
